A study of Mus musculus with 6 samples.

Results

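The genes described here make, store and move cholesterol. There are 17 enzymes of its synthesis and 6 genes that regulate that synthesis or carry sterols inside the cell. Another 5 are genes of cholesterol efflux, its nuclear receptors and Mylip, a target of those receptors, and 3 serve storage and lysosomal export. All were chosen as a fixed list of symbols matched to the gene_symbol column of the deposited expression table. That table held all 31 among its 17794 genes. Expression was measured by RNA sequencing of whole corneas from mice with dry eye produced by benzalkonium chloride (BAC), a detergent preservative that injures the ocular surface. After the injury, 3 libraries came from corneas given luteolin, a plant flavone, for 10 days and 3 from corneas given the vehicle for the same 10 days. The treatment label of the luteolin libraries reads "luteolin -control treated", whose second word is not explained; their titles (Lut) and the series title (Lut treated) were followed here. Both groups carry the BAC injury, and uninjured corneas were not analysed here. The labels give no strain, sex, age, luteolin dose or route, and they do not say whether each library is 1 animal, so p-values measure the spread between these libraries, which may be technical.

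Cells make cholesterol from acetyl-CoA through mevalonate and squalene, a chain of enzymatic steps that mostly takes place at the endoplasmic reticulum. The transcription factors SREBP1 and SREBP2, encoded by Srebf1 and Srebf2, switch on these enzymes when sterols are scarce: the escort protein SCAP carries them to the Golgi for cleavage, and the INSIG proteins hold SCAP back when sterols are plentiful. The liver X receptors, encoded by Nr1h2 and Nr1h3, respond to oxysterols when cholesterol is in excess and switch on efflux transporters such as ABCA1 and ABCG1. The cornea is covered by a stratified epithelium that renews itself, and its cells need sterols for new membranes.

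Library totals ran from 16084855 to 16469699 estimated counts, and levels below are in CPM, counts scaled to the library size with TMM factors, unless given in TPM, which also accounts for gene length. Corneal epithelial markers were abundant in all 6 libraries, and all 8 were higher with luteolin (summed 75506 to 78315 CPM in luteolin corneas and 43686 to 51541 CPM in vehicle corneas). Of 11 macrophage and dendritic cell markers in the table, 10 were lower and 1, Itgam, higher (log2 fold change 0.54), with sums of 227 to 276 CPM in luteolin corneas and 427 to 686 CPM in vehicle corneas. Itgam made up most of the sum in luteolin corneas, at 182, 218 and 213 CPM, against 126, 136 and 162 CPM in vehicle corneas. Csf1r, a defining receptor of macrophages, had 4.84, 7.02 and 3.47 CPM in luteolin corneas, against 31.5, 54.9 and 27.6 CPM in vehicle corneas. The sum of 8 keratocyte genes was 2108 to 4506 CPM in luteolin corneas and 3263 to 8583 CPM in vehicle corneas, and vehicle 2 had the highest. The sum of 8 skeletal muscle genes was 2.66 to 57.2 CPM in luteolin corneas and 1.55 to 139 CPM in vehicle corneas. Neutrophil markers summed to 1.23 to 2.38 CPM in luteolin corneas and 32.5 to 48.3 CPM in vehicle corneas. Meibomian and sebaceous gland markers summed to at most 7.399 CPM in any library and adipocyte markers to at most 0.26 CPM. In whole tissue, fewer cells of a type and less RNA per cell cannot be told apart, and the part that these shifts had in the results below was not tested.

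The promoters of 4 members are shown as examples: Hmgcs1, Insig1 and Srebf2, which rose with luteolin, and Idi1, which fell. The window of Mvd, which also fell, was read as well but is not shown. These examples do not stand for the other members. Each line runs 5′ to 3′ on the gene's own strand from 250 bases before the annotated start to 50 bases after it, from RefSeq on GRCm38.p6. The windows are chr13:119690101-119690400 on the plus strand for Hmgcs1, chr5:28071162-28071461 on the plus strand for Insig1, chr15:82147019-82147318 on the plus strand for Srebf2 and chr13:8885356-8885655 on the plus strand for Idi1. Capitals mark matches to the sterol regulatory element TCACNCCAC, to the CCAAT box (CCAAT, written ATTGG where it lies on the other strand) and to the E-box CACGTG.
Hmgcs1: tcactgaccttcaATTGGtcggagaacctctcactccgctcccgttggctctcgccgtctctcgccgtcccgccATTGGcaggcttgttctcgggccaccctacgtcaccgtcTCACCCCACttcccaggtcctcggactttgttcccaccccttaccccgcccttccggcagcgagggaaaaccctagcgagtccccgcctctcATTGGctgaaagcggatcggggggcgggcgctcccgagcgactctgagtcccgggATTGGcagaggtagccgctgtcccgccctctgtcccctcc
Insig1: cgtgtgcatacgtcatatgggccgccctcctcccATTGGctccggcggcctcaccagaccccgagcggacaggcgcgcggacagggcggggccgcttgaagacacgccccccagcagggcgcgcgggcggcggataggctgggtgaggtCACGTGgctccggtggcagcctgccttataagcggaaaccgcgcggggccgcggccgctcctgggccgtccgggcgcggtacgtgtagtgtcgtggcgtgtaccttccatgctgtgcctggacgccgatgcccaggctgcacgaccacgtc
Srebf2: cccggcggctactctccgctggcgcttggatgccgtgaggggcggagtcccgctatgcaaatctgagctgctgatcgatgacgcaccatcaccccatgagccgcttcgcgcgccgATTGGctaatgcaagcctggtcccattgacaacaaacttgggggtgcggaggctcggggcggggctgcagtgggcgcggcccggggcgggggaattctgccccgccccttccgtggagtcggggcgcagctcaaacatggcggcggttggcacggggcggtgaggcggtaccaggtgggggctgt
Idi1: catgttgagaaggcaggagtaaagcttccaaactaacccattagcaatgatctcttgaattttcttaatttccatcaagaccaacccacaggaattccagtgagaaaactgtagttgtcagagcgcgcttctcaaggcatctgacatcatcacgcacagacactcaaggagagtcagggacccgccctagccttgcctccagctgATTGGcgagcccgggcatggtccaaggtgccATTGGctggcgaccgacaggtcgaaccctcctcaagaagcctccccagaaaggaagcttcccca

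The sterol regulatory element searched is a form of the SREBP binding site, and the CCAAT box is bound by NF-Y, a factor known to act beside SREBP at many sterol genes. RefSeq promoters were matched for 25 of the 31 members, in 34 windows, and both strands were searched; the motifs in these 4 windows did not overlap each other. TCACNCCAC was found in 1 of the 34 windows, that of Hmgcs1, where it begins 137 bases before the start, against 1.24% of all 32851 windows. CCAAT was found in 61.8% of the member windows and in 37.4% of all windows. By gene, it was present for 12 of the 12 matched members that rose, 5 of the 8 that fell and 3 of the 5 that did not pass. Members with several windows had more chances of a match, and no share by gene was counted over all genes. A link to direction was not tested. CACGTG was found in 20.6% of the member windows and 7.15% of all windows, including 1 match in Insig1 that begins 101 bases before the start. These matches describe letters in a window and say nothing of binding.

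The comparison asks how transcript levels of these genes differed between luteolin and vehicle corneas. Of the 31 members, all of which passed the filter on low counts, 15 rose and 9 fell with luteolin, and 7 did not pass edgeR's quasi-likelihood test at an adjusted p under 0.05. The share called was 77.4%, against 58.9% of all 13838 tested genes. The share that rose was 48.4% of members against 28.5% of all genes, and the share that fell was 29.0% against 30.4%. The libraries of the groups did not overlap for 27 members, or 87.1%, against 67.4% of all genes. Their median log2 fold change was 0.17, against -0.02 for all tested genes, and their median level, 85.6 CPM, was above that of all tested genes, 25.6 CPM. The median absolute log2 fold change was 0.40 both for members and for all tested genes, and 6 members, or 19.4%, differed by more than 1, against 20.8% of all genes. The 6 lay outside the synthesis enzymes, in the groups of efflux and its receptors with Mylip, of storage, and of regulation.

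**Figure D1:**
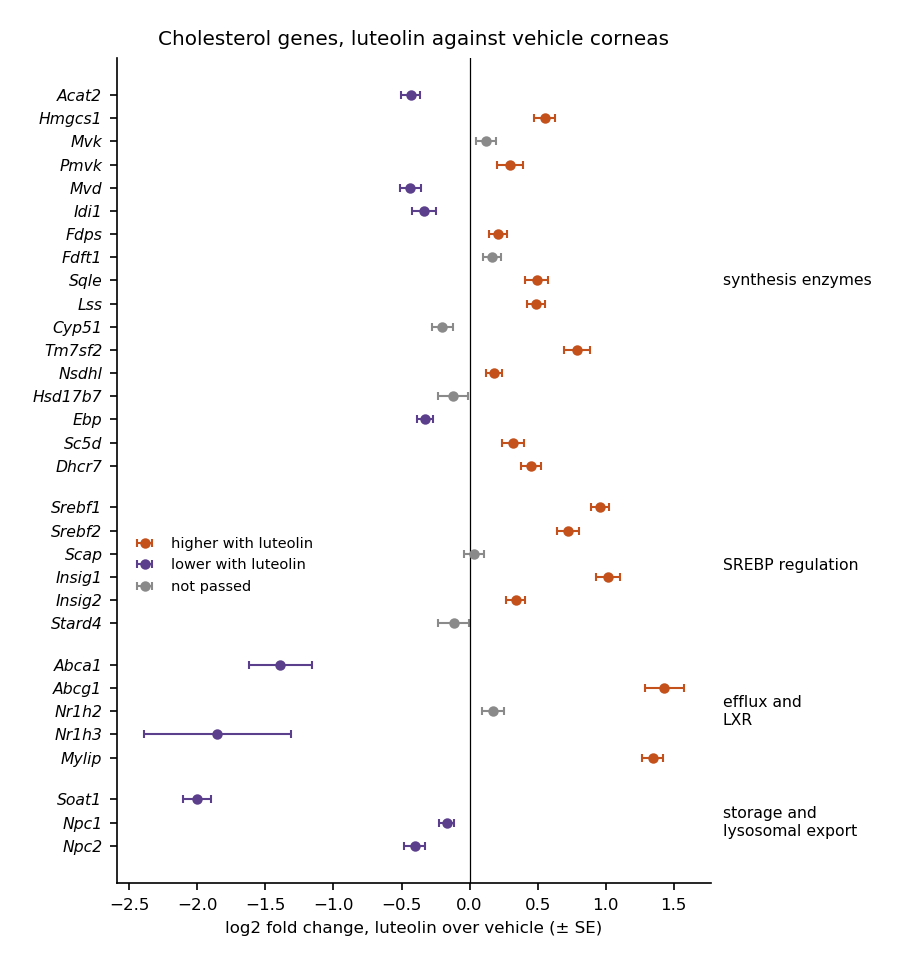
Log2 fold change (luteolin over vehicle, x axis) with its SE for the 31 members, grouped by role down the page. Orange points rose, purple points fell and grey points did not pass edgeR's test at an adjusted p under 0.05. The 17 synthesis enzymes lie between -0.44 and 0.79, while Soat1 (-2.003) and Abcg1 (1.43) mark the ends of the whole set.

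Among the regulators of sterol synthesis, 4 of 6 rose (66.7%, against 28.5% of all tested genes) and 0 fell (against 30.4%). The median log2 difference over the 6 was 0.53. Insig1 (gene ID 231070), an endoplasmic reticulum protein that retains the SREBP-SCAP complex and is itself an SREBP target, stood at 309, 379 and 355 CPM in luteolin corneas, against 163, 173 and 180 CPM in vehicle corneas. All 3 luteolin libraries were above all 3 vehicle libraries, with means of 348 ± 35.5 and 172 ± 8.90 CPM (SD, n = 3 each). The log2 fold change was 1.01 (SE 0.087, edgeR adjusted p = 0.000138). Insig2, its paralog, rose less, with 95.8, 102 and 88.6 CPM in luteolin corneas, against 74.7, 79.02 and 73.0 CPM in vehicle corneas (log2 fold change 0.34, SE 0.070, edgeR adjusted p = 0.00491). The groups did not overlap for either Insig gene.

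Both SREBP genes rose. Srebf1 (gene ID 20787), whose products act mainly on fatty acid genes, had 133, 134 and 143 CPM in luteolin corneas, against 75.6, 66.7 and 68.4 CPM in vehicle corneas (log2 fold change 0.96, SE 0.068, edgeR adjusted p = 7.81e-05). Srebf2 (gene ID 20788), whose product acts mainly on cholesterol genes, had 322, 348 and 349 CPM in luteolin corneas, against 201, 191 and 226 CPM in vehicle corneas (log2 fold change 0.72, SE 0.078, edgeR adjusted p = 0.000315). In each gene the lowest luteolin library lay well above the highest vehicle library. Srebf1 shares exon bases with Rai1 on the other strand, but its counts had decimals in 0 libraries. No division of Srebf1 reads with another gene was thus seen. Rai1 was also higher, by 0.35 on the log2 scale, from a lower level (34.7 CPM in luteolin corneas and 27.2 CPM in vehicle corneas). The other 2 genes of this group did not pass. Scap, the escort, averaged 61.0 ± 2.77 CPM in luteolin corneas and 59.5 ± 4.26 CPM in vehicle corneas (SD, n = 3 each, log2 fold change 0.03, edgeR adjusted p = 0.699), and its sign turned to -0.06 with upper quartile factors and to -0.08 with library sizes only. Stard4, which carries sterols through the cytosol, averaged 104 ± 10.8 CPM in luteolin corneas and 113 ± 14.5 CPM in vehicle corneas (SD, n = 3 each), with overlapping libraries.

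**Figure D2:**
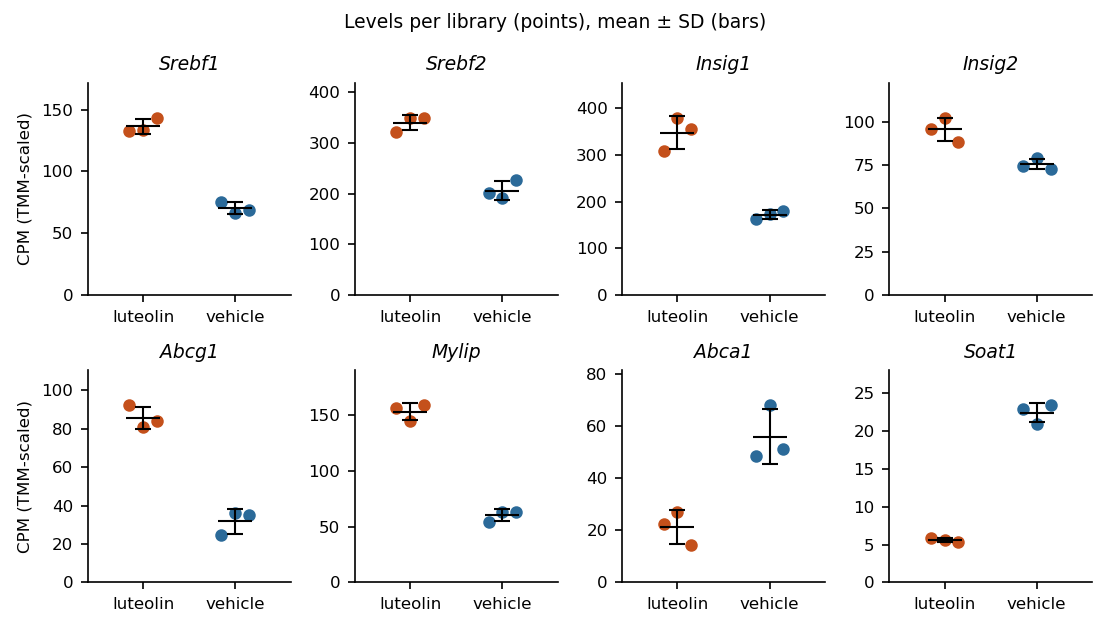
Levels in CPM scaled with TMM factors (y axes start at 0) for 8 members, with 1 point per library, luteolin left and vehicle right in each panel, and the mean ± SD in black. In every panel the 3 luteolin points lie clear of the 3 vehicle points: above them for Srebf1, Srebf2, Insig1, Insig2, Abcg1 and Mylip, and below them for Abca1 and Soat1.

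The 17 synthesis enzymes differed in both directions, with a median absolute log2 fold change of 0.33, against 0.40 for all tested genes. Of the 17, 9 rose (52.9%, against 28.5% of all tested genes), 4 fell (23.5%, against 30.4%) and 4 did not pass. The log2 fold changes of the 17 ran from -0.44 to 0.79 with a median of 0.18. Of the 17, 0 differed by more than 1, against 20.8% of all tested genes. Leaving out 1 library at a time gave 6 to 8 higher enzymes, with 6 without luteolin 2 or luteolin 3, and 3 to 5 lower ones. The count of higher enzymes was 5 with library sizes only. The TPM values of the 17 enzymes summed to 1979, 2160 and 2000 in luteolin corneas, against 1904, 1783 and 1735 in vehicle corneas, so the lowest luteolin sum was above the highest vehicle sum. The most abundant enzymes weigh most in such a sum, so it does not describe each of the 17. Per length, Fdps, which makes farnesyl diphosphate, was the most abundant enzyme in all 6 libraries (551 to 592.5 TPM in luteolin corneas and 478 to 521 TPM in vehicle corneas). Hsd17b7, a ketosteroid reductase late in the pathway, was the lowest, at 14.2 to 18.4 TPM in luteolin corneas and 15.95 to 18.8 TPM in vehicle corneas. Hmgcs1 came next after Fdps in mean TPM in both groups.

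**Figure D3:**
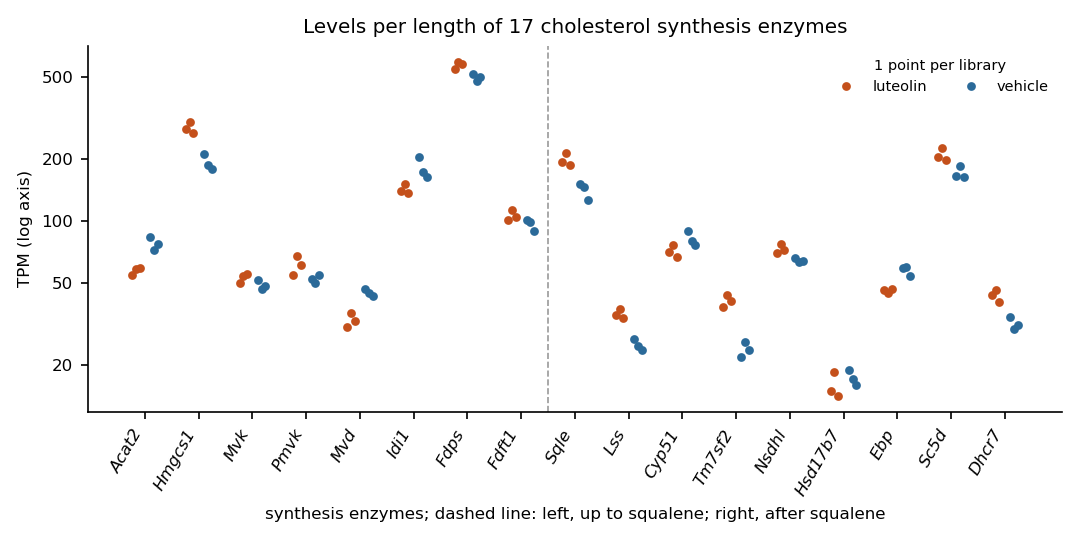
TPM (log axis) of the 17 synthesis enzymes, with 1 point per library, luteolin left and vehicle right for each gene. Levels span from Hsd17b7 at 14.2 TPM to Fdps at 592.5 TPM, a spread between enzymes that is far wider than any difference between the groups.

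Up to squalene, 3 of 8 enzymes rose and 3 fell (37.5% each, against 28.5% and 30.4% of all tested genes). Hmgcs1 (gene ID 208715), which condenses acetyl units into HMG-CoA, had 603, 662 and 586 CPM in luteolin corneas, against 457, 410 and 397 CPM in vehicle corneas. Every luteolin library was above every vehicle library, and the log2 fold change was 0.55 (SE 0.079, edgeR adjusted p = 0.000987). The enzyme before it and enzymes further on went the other way. Acat2, which joins acetyl-CoA units in the cytosol, had 65.3, 70.6 and 71.5 CPM in luteolin corneas, against 98.8, 86.3 and 94.8 CPM in vehicle corneas (log2 fold change -0.43, SE 0.071, edgeR adjusted p = 0.00180). Its counts had decimals in all 6 libraries, so part of its reads was divided with another gene. Mvd, the decarboxylase that forms isopentenyl diphosphate, had 29.8, 35.6 and 32.6 CPM in luteolin corneas, against 45.2, 43.9 and 43.5 CPM in vehicle corneas (log2 fold change -0.44, SE 0.078, edgeR adjusted p = 0.00267). Idi1, the isomerase of the next step, had 241, 264 and 241 CPM in luteolin corneas, against 353, 301 and 290 CPM in vehicle corneas, and its log2 difference of -0.34 (SE 0.088, edgeR adjusted p = 0.0132) kept its sign under the 16 alternatives but not its call without luteolin 1 (adjusted p = 0.0592) or luteolin 3 (adjusted p = 0.0589; over the alternatives 0.000995 to 0.0592). For Acat2, Mvd and Idi1 the groups did not overlap.

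Pmvk and Fdps rose by less, and Mvk and Fdft1 did not pass. Pmvk, phosphomevalonate kinase, averaged 43.9 ± 4.90 CPM in luteolin corneas and 35.7 ± 2.17 CPM in vehicle corneas (SD, n = 3 each, log2 fold change 0.30, edgeR adjusted p = 0.0307). Its call ended without luteolin 2 (0.21), luteolin 3 (0.28), vehicle 1 (0.26) or vehicle 2 (0.28), with upper quartile factors (0.20) and with library sizes only (0.18), where adjusted p ran from 0.0586 to 0.123. It also ended with limma on FPKM (0.099 and 0.10), and over the 16 alternatives adjusted p ran from 0.0154 to 0.350. Fdps averaged 373 ± 18.3 CPM in luteolin corneas and 323 ± 13.8 CPM in vehicle corneas (SD, n = 3 each, log2 fold change 0.21, edgeR adjusted p = 0.0250). Its call ended without luteolin 2 (0.17), luteolin 3 (0.19) or vehicle 3 (0.21), with upper quartile factors (0.12), with library sizes only (0.095) and with limma on FPKM (0.079 at both pseudocounts), with adjusted p of 0.00329 to 0.287 over the 16 alternatives. The groups did not overlap for Pmvk or Fdps. Mvk, mevalonate kinase, averaged 51.2 ± 3.39 CPM in luteolin corneas and 47.1 ± 2.08 CPM in vehicle corneas (SD, n = 3 each), with overlapping libraries. Fdft1, squalene synthase, averaged 206 ± 12.6 CPM in luteolin corneas and 184 ± 7.86 CPM in vehicle corneas (SD, n = 3 each, log2 fold change 0.16, edgeR adjusted p = 0.0659). It shares exon bases with Ctsb on the other strand, which was lower with luteolin (log2 fold change -0.70), and its counts had decimals in all 6 libraries.

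After squalene, 6 of 9 enzymes rose (66.7%, against 28.5% of all tested genes), 1 fell (11.1%, against 30.4%) and 2 did not pass. Sqle (gene ID 20775), the squalene epoxidase, a rate-limiting enzyme of the sterol branch, had 318, 360 and 315 CPM in luteolin corneas, against 248, 243 and 215 CPM in vehicle corneas (log2 fold change 0.49, SE 0.083, edgeR adjusted p = 0.00198). Lss, which closes the rings to lanosterol, had 139, 153 and 140 CPM in luteolin corneas, against 108, 102 and 97.5 CPM in vehicle corneas (log2 fold change 0.49, SE 0.066, edgeR adjusted p = 0.000764). These consecutive steps rose by nearly the same amount, with no overlap between groups. Tm7sf2, a sterol reductase, had the largest change of the enzymes, with 30.2, 35.1 and 32.7 CPM in luteolin corneas, against 17.1, 20.3 and 19.2 CPM in vehicle corneas (log2 fold change 0.79, SE 0.096, edgeR adjusted p = 0.000488). It shares exon bases with Vps51 on the same strand, which was higher by 0.38 on the log2 scale. Counts of Tm7sf2 had decimals in 0 libraries. Dhcr7, the reductase of the last step from 7-dehydrocholesterol, had 64.7, 69.2 and 60.4 CPM in luteolin corneas, against 50.2, 44.5 and 47.2 CPM in vehicle corneas (log2 fold change 0.45, SE 0.075, edgeR adjusted p = 0.00188).

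Sc5d and Nsdhl also rose, and Ebp fell. Sc5d, the sterol desaturase just before Dhcr7, averaged 329 ± 23.1 CPM in luteolin corneas and 264 ± 19.1 CPM in vehicle corneas (SD, n = 3 each, log2 fold change 0.32, edgeR adjusted p = 0.0109); with library sizes only it was 0.20 and did not pass (adjusted p = 0.0529), nor did it with limma on FPKM (0.16; adjusted p over the alternatives 0.00113 to 0.0880). Nsdhl, a dehydrogenase of sterol demethylation, averaged 95.1 ± 5.33 CPM in luteolin corneas and 84.1 ± 1.55 CPM in vehicle corneas (SD, n = 3 each, log2 fold change 0.18, edgeR adjusted p = 0.0348), and its call ended under 11 of the 16 alternatives. These were leaving out any 1 of the 6 libraries (0.12 to 0.20), upper quartile factors (0.083), library sizes only (0.063), the replicate block (0.18) and limma on FPKM (0.053 and 0.054), with adjusted p of 0.0319 to 0.450 over all 16. Its groups did not overlap. Ebp, the sterol isomerase, had 44.5, 44.0 and 46.3 CPM in luteolin corneas, against 56.9, 58.0 and 54.0 CPM in vehicle corneas (log2 fold change -0.33, SE 0.059, edgeR adjusted p = 0.00278). Cyp51, the lanosterol demethylase, averaged 197 ± 13.9 CPM in luteolin corneas and 226 ± 14.6 CPM in vehicle corneas (SD, n = 3 each), and its log2 fold change of -0.20 (edgeR adjusted p = 0.0534) passed under 8 of the 16 alternatives, among them without luteolin 2 (-0.27), with DESeq2 (-0.20) and with library sizes only (-0.32), with adjusted p from 0.0119 to 0.184. Cyp51 shares exon bases with Akap9 on the other strand, which was higher with luteolin (log2 fold change 0.69). Counts of Cyp51 had decimals in 0 libraries. Hsd17b7 averaged 46.1 ± 6.70 CPM in luteolin corneas and 50.2 ± 3.48 CPM in vehicle corneas (SD, n = 3 each), with overlapping libraries.

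Of the 5 genes of efflux, its receptors and their target Mylip, 2 rose and 2 fell (40% each, against 28.5% and 30.4% of all tested genes). Of these 5, 1 did not pass, and the pair of transporters went opposite ways. Abcg1 (gene ID 11307), a transporter that moves cholesterol towards high-density lipoprotein, had 92.2, 80.8 and 84.2 CPM in luteolin corneas, against 24.5, 36.1 and 34.9 CPM in vehicle corneas. The difference was 1.43 on the log2 scale (SE 0.14, edgeR adjusted p = 0.000236), with all luteolin libraries above all vehicle libraries. Abca1 (gene ID 11303), which loads cholesterol onto lipid-poor apolipoproteins, had 22.6, 27.0 and 14.3 CPM in luteolin corneas, against 48.5, 67.8 and 51.2 CPM in vehicle corneas. The difference was -1.39 on the log2 scale (SE 0.23, edgeR adjusted p = 0.00187), with all luteolin libraries below all vehicle libraries. Luteolin 3 had the lowest and vehicle 2 the highest level of Abca1, and those libraries also held the lowest and highest sums of keratocyte genes (2108 and 8583 CPM). Within luteolin corneas the other libraries followed the same order, with keratocyte sums of 3873 CPM in luteolin 1 and 4506 CPM in luteolin 2. Within vehicle corneas, vehicle 1 had a higher sum than vehicle 3 (4741 and 3263 CPM) but less Abca1. Between groups, vehicle 3 had a lower sum than luteolin 1 and luteolin 2 but more Abca1. Of the 8 keratocyte genes Aldh1a1 was higher (log2 fold change 2.42), Col1a2 was lower (-1.04) and 6 did not pass, and their part in the Abca1 difference was not tested. The fold change of Abca1 without 1 library ran from -1.61 to -1.17, and the call held each time.

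Mylip (gene ID 218203), a ubiquitin ligase and known liver X receptor target that marks lipoprotein receptors for breakdown, rose as Abcg1 did. It had 156, 145 and 159 CPM in luteolin corneas, against 54.4, 63.7 and 63.1 CPM in vehicle corneas (log2 fold change 1.35, SE 0.078, edgeR adjusted p = 4.71e-05). Neither liver X receptor gene was called higher. Nr1h2, the widely expressed liver X receptor beta, averaged 60.5 ± 4.81 CPM in luteolin corneas and 53.7 ± 3.23 CPM in vehicle corneas (SD, n = 3 each, log2 fold change 0.17, edgeR adjusted p = 0.101). Nr1h3, liver X receptor alpha, a form known from macrophages and liver, was the least abundant member, with 0.645, 0.910 and 0.386 CPM in luteolin corneas, against 0.993, 3.63 and 2.44 CPM in vehicle corneas. These rest on 10, 14 and 6 counts in luteolin corneas, against 17, 62 and 41 in vehicle corneas, and luteolin 2 and vehicle 1 lie close to each other. Its log2 difference of -1.85 (SE 0.54, edgeR adjusted p = 0.0206) lost its call without luteolin 1 (-1.86), luteolin 3 (-1.59) or vehicle 2 (-1.40), where adjusted p ran from 0.0502 to 0.0682 and over the 16 alternatives from 0.00633 to 0.0682. Per length, Nr1h2 exceeded Nr1h3 in every library, with mean levels of 51.2 and 0.67 TPM in luteolin corneas, against 45.8 and 2.44 TPM in vehicle corneas.

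The 3 genes of storage and lysosomal export all fell, against 30.4% of all tested genes. Soat1 (gene ID 20652), which esterifies cholesterol for storage in lipid droplets, had the largest change of the 31 members, with 5.80, 5.65 and 5.28 CPM in luteolin corneas, against 22.8, 21.0 and 23.4 CPM in vehicle corneas. It was 4.01-fold lower with luteolin (log2 fold change -2.003, SE 0.10, edgeR adjusted p = 4.15e-05), and the spread within each group was small beside that gap. Npc2 (gene ID 67963), the soluble lysosomal protein that hands cholesterol to NPC1, had 142, 139 and 139 CPM in luteolin corneas, against 171, 205 and 178 CPM in vehicle corneas (log2 fold change -0.40, SE 0.076, edgeR adjusted p = 0.00332). Npc1, the membrane protein of that export step, had 63.6, 69.5 and 64.7 CPM in luteolin corneas, against 73.3, 74.8 and 74.2 CPM in vehicle corneas. Its log2 difference of -0.17 (SE 0.057, edgeR adjusted p = 0.0371) was small, and the call ended without luteolin 1 (-0.16), luteolin 3 (-0.16), vehicle 1 (-0.18), vehicle 2 (-0.16) or vehicle 3 (-0.19) and with DESeq2, no filter or the replicate block (adjusted p over the 16 alternatives 0.00420 to 0.108). Soat1, Npc2 and Abca1 are also expressed by macrophages, whose markers were lower in the same libraries, 10 of 11 of them, with a median log2 fold change of -3.01; the part of that shift in these decreases was not tested.

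Other genes of the pathway, listed by role, were read in the same fit. Of 48 listed symbols 46 were in the table and 43 were tested, and 18 rose, 12 fell and 13 did not pass. The share called was 69.8%, against 58.9% of all tested genes. The groups did not overlap for 69.8% of them, against 67.4% of all tested genes. By direction, 41.9% rose, against 28.5%, and 27.9% fell, against 30.4%. The median difference of these other genes was 0.12 on the log2 scale. Of the 6 tested synthesis genes among them 3 rose, 1 fell and 2 did not pass, a share called of 66.7%, against 58.9% of all tested genes. In the group of uptake and lysosomal hydrolysis all 7 tested genes were called, against the same 58.9%. Of these 7, 2 rose (28.6%, against 28.5% of all tested genes) and 5 fell (71.4%, against 30.4%). Vldlr, a lipoprotein receptor, had 23.0, 14.0 and 16.7 CPM in luteolin corneas, against 4.67, 9.01 and 3.04 CPM in vehicle corneas (log2 fold change 1.68, SE 0.38, edgeR adjusted p = 0.00721). Lrp8, a receptor of the same family, had 1.999, 2.86 and 2.64 CPM in luteolin corneas, against 19.9, 12.1 and 14.6 CPM in vehicle corneas (log2 fold change -2.63, SE 0.24, edgeR adjusted p = 0.000163). So 2 related receptors differed in opposite directions, with no overlap between groups in either.

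The transcript of the 1 tested gene of the storage list was lower with luteolin. Nceh1, a hydrolase that frees cholesterol from stored esters and is known from macrophages, had 2.97, 3.44 and 2.44 CPM in luteolin corneas, against 10.6, 14.5 and 13.4 CPM in vehicle corneas (log2 fold change -2.12, SE 0.19, edgeR adjusted p = 0.000169). Of 12 sterol transfer genes, 7 rose, 1 fell and 4 did not pass, a share called of 66.7%, against 58.9% of all tested genes. Osbpl5, an oxysterol-binding protein relative at membrane contact sites, had 160, 155 and 152 CPM in luteolin corneas, against 79.2, 97.1 and 82.8 CPM in vehicle corneas (log2 fold change 0.85, SE 0.083, edgeR adjusted p = 0.000213). Of 8 genes of SREBP processing and sterol-dependent degradation 5 rose and 0 fell, none by more than 0.42 on the log2 scale. Of 4 genes of oxysterol formation 2 fell and 2 did not pass, and of 5 tested carriers and efflux genes 1 rose, 2 fell and 2 did not pass. The shares called were 62.5% for SREBP processing and degradation, 50% for oxysterol formation and 60% for carriers and efflux, against 58.9% of all tested genes.

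Of the 31 members, 21 had the same direction and the same side of the threshold under all 16 alternative settings. Of the 24 called members 17 kept their call under every one: Hmgcs1, Sqle, Lss, Tm7sf2, Dhcr7, Srebf1, Srebf2, Insig1, Insig2, Abcg1 and Mylip as higher, and Acat2, Mvd, Ebp, Abca1, Soat1 and Npc2 as lower. The 7 others were Pmvk, Idi1, Fdps, Nsdhl, Sc5d, Nr1h3 and Npc1. All 24 kept their sign.

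**Figure D4:**
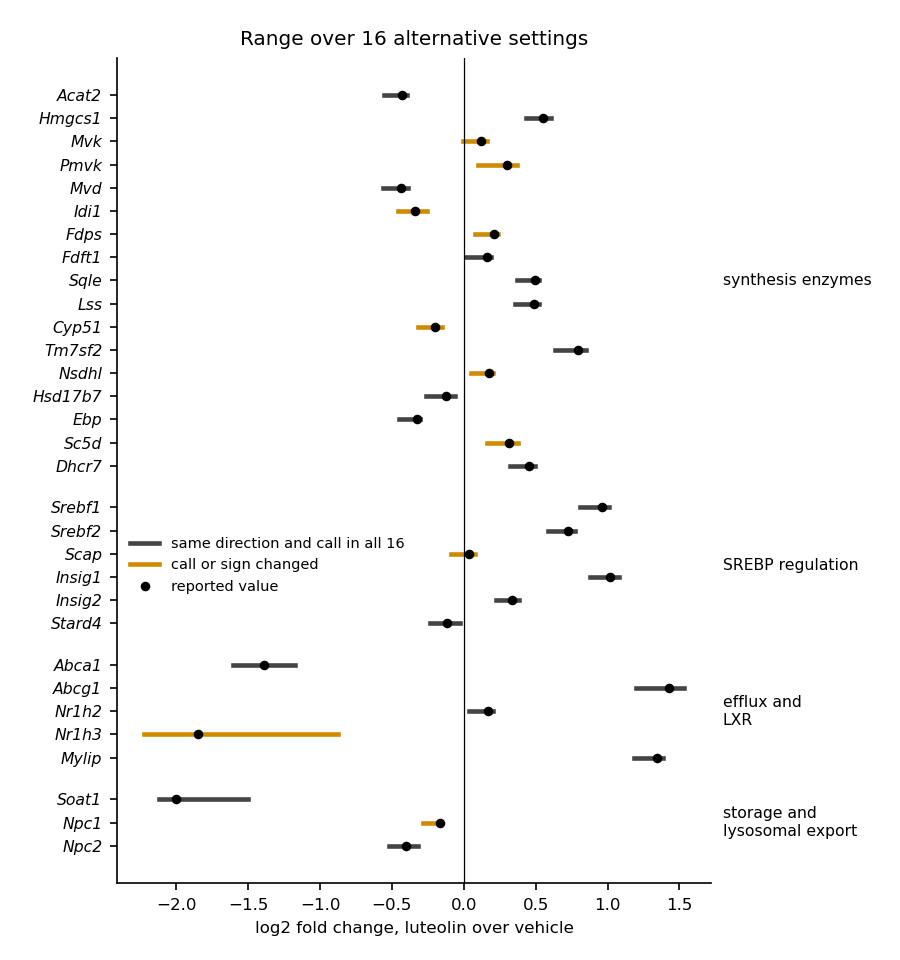
Lowest to highest log2 fold change (luteolin over vehicle, bars) over the 16 alternative settings for each member, with the reported value as a black point. Grey bars mark the 21 members with the same direction and call throughout, and orange bars those with a changed call or sign; Nr1h3 has the widest bar, from -2.22 to -0.87.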

How the data were processed

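Per the labels' protocols, whole corneas were flash frozen, RNA was isolated by Trizol, and libraries came from a TruSeq kit. Bowtie2 2.2.5, RSEM 1.2.12 and build mm9 are listed in the submitters' processing notes without their roles. The annotation, and whether counting used strand, were not given in the sources used here. The authors deposited, per the file headers, estimated counts (10.3% to 10.8% of values not within 0.001 of a whole number), normalized read counts, a signal equal to the count divided by 1 factor per library (0.945 to 1.07), and FPKM and TPM values. Columns were mapped by name; 8 columns of group averages were not used.

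Estimated counts were rounded and tested with edgeR 4.0.16 (R 4.3.3): filterByExpr (minimum count 10, total 15; 13838 of 17794 genes kept), TMM, the quasi-likelihood test without a replicate block, Benjamini-Hochberg over all tested genes and a threshold of 0.05. Log2 fold changes are luteolin over vehicle; SEs were derived from each change and its F statistic (change over root F). The alternatives were DESeq2 1.42.0, other scaling factors and filters, a robust fit, the replicate block, limma-trend (limma 3.58.1) on log2(FPKM + 1) or log2(FPKM + 0.1), and leaving out each library. The code was tested on simulated data.

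Every member is named. Of the other pathway genes, the called ones with the 3 highest and 3 lowest fold changes were to be named; values of some genes are not reported here. Itgam, Csf1r, Aldh1a1, Col1a2 and genes sharing exons with members (GENCODE M21, names only) were chosen after their values were seen. Members and lists were chosen with earlier results of these data known. Promoters are on GRCm38.p6, not the files' build.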

Additional observations from a re-analysis of the deposited data

How the results depend on the processing

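Over all tested genes the median log2 difference was -0.02 with TMM factors, -0.11 with upper quartile factors and -0.13 with library sizes only. The named genes moved down by a similar amount under these factors, whatever the size of their difference. The median of the 31 members was 0.074 with upper quartile factors and 0.056 with library sizes only. It was 0.035 and 0.036 with limma-trend on log2(FPKM + 1) and log2(FPKM + 0.1). In each of these settings 19 members lay above the median of all genes. Scaling factors shift members and that median nearly alike, so this count could hardly change with them and is no check of the scaling. Library sizes only and both FPKM settings gave 11 higher and 10 lower members, against 15 and 9, and 5 higher synthesis enzymes, against 9; among all called genes the share that was lower was 63.6% with library sizes only, against 51.6%. Mvk turned to -0.0084 and -0.0086 with the FPKM settings. Scap turned to -0.061 with upper quartile factors, -0.080 with library sizes only and -0.081 and -0.086 with the FPKM settings, and ran from -0.00053 (without vehicle 2) to 0.077 when 1 library was left out. Low genes had smaller values on the log2(FPKM + 1) scale by its construction: Nr1h3 -0.87, Soat1 -1.50, Lrp8 -1.29, Nceh1 -1.35 and Vldlr 0.90. Without 1 library, 12 to 14 members were higher and 6 to 10 lower, with 6 lower without luteolin 1 or luteolin 3. Adding the replicate block, 14 members were higher and 8 lower, and Nsdhl (0.18) and Npc1 (-0.17) lost their calls. Deviations of same-numbered libraries from their group means correlated at -0.16, 0.064 and 0.11, and luteolin 1 correlated best with vehicle 2. With 3 libraries per group, these correlations cannot decide whether a shared number marks a shared animal or day. Counts of 6 to 62 per library limit Nr1h3.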

Other observations

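Ratios between related members were also read within each library, in TPM. Abcg1 over Abca1 was 7.38, 5.42 and 10.7 in luteolin corneas, against 0.913, 0.961 and 1.23 in vehicle corneas, so the transporters were near parity with vehicle and Abcg1 was several-fold the more abundant with luteolin. Insig1 over Insig2 was 3.14, 3.61 and 3.98 in luteolin corneas, against 2.15, 2.16 and 2.45 in vehicle corneas. Srebf1 over Srebf2 was 0.472, 0.440 and 0.470 in luteolin corneas, against 0.428, 0.396 and 0.345 in vehicle corneas. In each ratio the groups did not overlap, and the two-sided exact permutation test gave p = 0.1 for all 3, the smallest that 3 libraries against 3 can give, so no ratio could pass a threshold of 0.05. The members were chosen with earlier results known, so these ratios are descriptions.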
